A study of Homo sapiens with 6 samples.

Results

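The globin genes, from the embryonic to the adult forms, were followed in K562 cells that had become resistant to methotrexate (MTX), a folate antagonist that blocks dihydrofolate reduction. K562 is an established human line from an erythroblastic leukemia and keeps erythroid features. The members were the 10 genes HBE1, HBG1, HBG2, HBD and HBB of the beta cluster on chromosome 11, and HBZ, HBM, HBA1, HBA2 and HBQ1 of the alpha cluster on chromosome 16. Every probe set whose platform annotation names a member was taken, which gave all 10 of the 10 genes, out of 21357 genes named on the array, and 19 of its 54675 probe sets, 10 for the beta cluster and 9 for the alpha cluster. Of these, 9 are shared by a duplicated pair (HBG1 with HBG2, or HBA1 with HBA2), so the copies of a pair cannot be told apart, and 10 name 1 gene.

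Total RNA of parental K562 cells, sensitive to MTX (3 arrays), was compared with that of K562 cells resistant to MTX at the concentration that the labels write as 10e-5 M (3 arrays). Read literally this is not the concentration in the methods, so the dose is uncertain. Resistant cells came from stepwise exposure to MTX and were kept in a selective medium lacking glycine, hypoxanthine and thymidine, with dialyzed serum, whereas parental cells were in Ham's F12 medium, so that resistance and medium are confounded. Whether replicates were separate cultures is not in the labels, and p-values therefore measure only the spread between these samples, which may be technical. Levels are signals divided by the median of their array and are written as array medians.

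Haemoglobin is a tetramer of alpha-type and beta-type globin chains, each holding a haem group. Within each cluster the genes lie in the order in which they are used in development: zeta (HBZ) and epsilon (HBE1) in the embryo, gamma (HBG1, HBG2) with alpha (HBA1, HBA2) in the fetus, and beta (HBB) with a small share of delta (HBD) in the adult. Far enhancers, the locus control region beyond HBE1 and elements within introns of NPRL3 beside HBZ, drive the genes of each cluster in red cell precursors. K562 cells are known for transcribing embryonic and fetal globin genes and little HBB.

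HBE1 was the only globin gene called between the groups by limma. Its transcript was lower in resistant cells, while the gamma, zeta and alpha transcripts, which the same cells held at high levels, showed no called difference. The HBD signal lay higher in every resistant array without passing the test, and HBQ1 lay lower in every resistant array, also without passing. HBM stayed in the range of background in both groups.

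In these bulk samples, fewer cells with a transcript and less transcript per cell cannot be told apart. Parental 1 correlated less with parental 2 and 3 (Spearman 0.899 and 0.889 across probe sets) than those did with each other (0.969), and resistant 3 less with resistant 1 and 2 (0.941 and 0.946) than those did with each other (0.968). Results are therefore also given without these arrays where that matters. The labelled erythroid identity was checked on 12 markers, of which 10 were measured and tested. Their summed level ran from 504.3 to 554.0 array medians in parental and from 441.6 to 568.9 in resistant arrays, most of it TFRC and ALAS2. Of the 10, 0 were called by limma, where 2.77% of all tested genes were. An unadjusted p under 0.05 was found for 3, where 20% of all tested genes had one. A negative log2 difference was found for 7, with a median of -0.33 over the 10, against 0.02 over all tested genes. KEL and AHSP lay lower in every resistant array, where 14.2% of all tested genes did. AHSP and EPB42, both among the negative ones, passed the level filter only through parental arrays (resistant means 0.603 and 0.443 array medians). The filter thus favoured their negative differences. Of the 6 granulocyte and monocyte markers, MPO, ELANE and CD14 were at or under 1.05 array medians in all arrays. AZU1 reached 2.44 in parental 2 and CSF1R 1.72 in resistant 2. LYZ read 42.1 to 60.9 in parental and 10.1 to 21.3 in resistant arrays. Of the lymphoid markers CD3D alone stood well above background, and only in parental arrays, so that the summed level of 4 lymphoid markers was 35.1 to 51.7 in parental cells and 3.32 to 4.06 in resistant arrays. For 7 megakaryocyte markers the sum was 14.8 to 37.9 in parental cells and 6.62 to 8.87 in resistant arrays, and for 6 granulocyte and monocyte markers, most of it LYZ, 43.2 to 66.3 and 12.6 to 24.5. The sum of 5 epithelial markers, most of it keratins, was 633.5 in parental 1 against 332.2 and 265.8 in parental 2 and 3, and 220.6 to 304.7 in resistant arrays. CDH1 read 21.8, 2.01 and 0.717 in parental 1, 2 and 3, and EPCAM 9.53, 1.19 and 0.307. In resistant arrays both were at most 0.471. The part of these cell type markers in the globin results was not tested.

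Upstream sequences of 2 of the 10 members were at hand from RefSeq (GRCh38.p14), those of HBD, the globin gene whose signal lay higher in resistant cells, and of HBM, the one without signal above background. Each shows the 250 bases before the transcription start, 5′ to 3′ on the coding strand. Capitals mark matches on either strand to GATA, the core bound by GATA factors, CCAAT, the core bound by NF-Y, CACCC, the core bound by KLF1, and TATAA. None of the matches printed overlaps another.
HBD, chr11:5234484-5234733, minus strand: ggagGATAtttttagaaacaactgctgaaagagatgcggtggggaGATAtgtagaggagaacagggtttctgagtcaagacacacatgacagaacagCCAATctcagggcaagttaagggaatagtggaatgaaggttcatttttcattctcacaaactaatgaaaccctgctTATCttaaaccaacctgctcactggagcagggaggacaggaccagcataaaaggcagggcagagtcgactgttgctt
HBM, chr16:165728-165977, plus strand: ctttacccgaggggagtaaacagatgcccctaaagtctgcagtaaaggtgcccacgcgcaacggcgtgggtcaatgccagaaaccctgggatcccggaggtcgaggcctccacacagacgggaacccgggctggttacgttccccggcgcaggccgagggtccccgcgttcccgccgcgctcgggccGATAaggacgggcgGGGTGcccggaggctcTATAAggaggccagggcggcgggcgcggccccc

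The HBD window holds GATA 3 times, with first bases 246, 205 and 77 bases before the start, and CCAAT 1 time, 153 bases before it. CACCC and TATAA are not written in it in these letters. The HBM window holds GATA, CACCC and TATAA 1 time each, 63, 49 and 33 bases before the start. Of 35116 promoters of the same length, 45.6% hold GATA on either strand, 32% CCAAT, 54.7% CACCC and 18.9% TATAA. The matches are descriptions of the letters and not of bound sites.

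Of the 19 globin probe sets, 17 averaged at least 1 array median over the 6 arrays and were among the 26692 tested by limma with Benjamini-Hochberg adjustment. Calls needed an adjusted p below 0.05 together with a change of 2-fold or more. Of all tested probe sets 2.33% were called, 1.14% lower and 1.2% higher in resistant cells. Of the globin probe sets 1 was called lower, that of HBE1, and 0 higher, which makes 1 of 9 tested in the beta cluster and 0 of 8 in the alpha cluster. At an unadjusted p under 0.05 there were 2 in the beta cluster and 0 in the alpha cluster, against 18.7% of all tested probe sets. Parental and resistant arrays were fully separated for 3 of the 17 (HBE1 and HBQ1 lower, HBD higher), where 27.2% of all tested probe sets behaved so. The median log2 difference, resistant minus parental, was 0.10 in the beta cluster and -0.18 in the alpha cluster, against 0.03 over all tested probe sets.

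**Figure D1:**
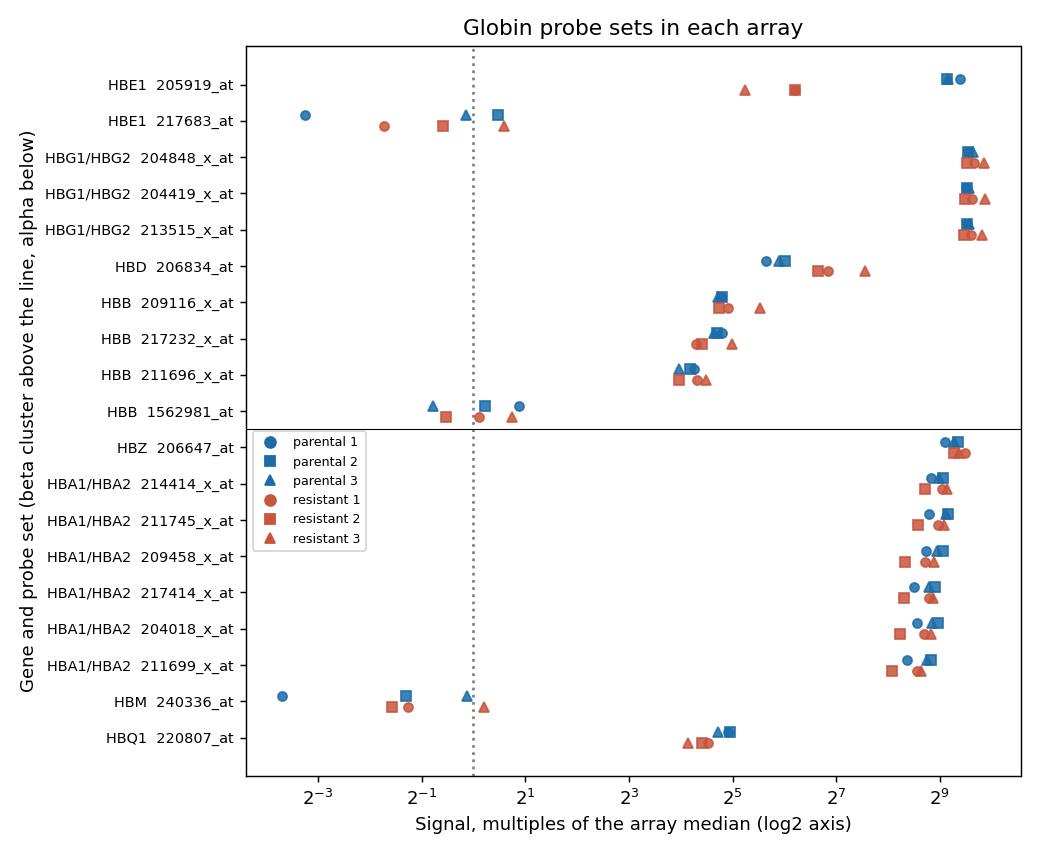
Signal of the 19 globin probe sets in each of the 6 arrays, given as array medians (log2 axis), with parental arrays in blue and resistant arrays in red. HBE1 205919_at drops from 561.7 to 670.3 array medians to 37.6 to 73.8, whereas the gamma, zeta and alpha probe sets stay in the same range, and 3 probe sets (HBE1 217683_at, HBB 1562981_at, HBM) lie about the median (dotted line).

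HBE1 encodes epsilon globin, the first beta-type chain made in the yolk sac. Its probe set 205919_at read 670.3, 561.7 and 569.5 array medians in parental 1, 2 and 3, and 73.8, 73.5 and 37.6 in resistant 1, 2 and 3. Every resistant array was thus far under every parental one, and resistant 3 was the lowest. The mean fell from 600.5 ± 60.6 to 61.6 ± 20.8 (SD, n = 3 arrays each), a log2 difference of -3.35 (SE 0.320, 95% interval -4.11 to -2.58; limma adjusted p = 0.00562). In the deposited intensities, before the division by the array median, the 6 arrays read 9586, 7358 and 7233 against 908.0, 918.7 and 383.5. The difference thus does not come from that division. With each array left out in turn the log2 difference lay between -3.51 and -3.02 and the call stood (limma adjusted p from 0.0105 to 0.0294). With the methods' t-test on the same values, HBE1 did not pass after adjustment (adjusted p = 0.0621), nor did any globin probe set.

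A further probe set annotated to HBE1, 217683_at, behaved differently. It read 0.105, 1.38 and 0.906 array medians in parental cells and 0.301, 0.664 and 1.5 in resistant arrays, and fell under the level filter. It lay at background in parental arrays too, where 205919_at was bright, so the HBE1 result rests on 1 probe set.

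HBG1 and HBG2 encode the gamma chains of fetal haemoglobin and are read together by 3 probe sets. The brightest, 204848_x_at, stood at 749.6, 748.7 and 793.8 array medians in parental arrays and at 808.7, 732.9 and 919.1 in resistant arrays. The groups overlapped, and the log2 difference was 0.10 (SE 0.202, 95% interval -0.39 to 0.58). The others, 204419_x_at and 213515_x_at, had log2 differences of 0.13 and 0.09, and none of the 3 was called (limma adjusted p from 0.775 to 0.839). In each of the 3, resistant 2 was the lowest and resistant 3 the highest of the 6 arrays. With values as deposited the 3 log2 differences were -0.11 to -0.07, and under quantile normalization -0.25 to -0.20, so that no direction can be given.

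The gamma signals were close to the top of the scale. They amounted to 86.8% to 100% of the highest signal of any probe set on parental arrays, and to 70.4% to 77.1% of it on resistant ones. HBE1 in parental arrays stood at 67.7% to 79.8% of that highest signal, and in resistant arrays at 3.08% to 7.27%. Differences between such bright signals may be compressed, which was not tested.

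HBD encodes delta globin, a minor adult chain, and has 1 probe set. It read 50.05, 64.2 and 59.7 array medians in parental arrays and 114.1, 99.8 and 189.0 in resistant arrays. All resistant arrays lay above all parental ones, with resistant 3 the highest. The mean went from 58.0 ± 7.20 to 134.3 ± 47.9 (SD, n = 3 arrays each), a log2 difference of 1.16 (SE 0.299, 95% interval 0.45 to 1.88), and HBD was not called (limma adjusted p = 0.11). Of 17 alternatives 15 did not call HBD either, and the log2 differences over all 17 ran from 0.79 to 1.35. It was called with limma's intensity trend and robust prior (adjusted p = 0.0239) and with 1 array median added before log2 (adjusted p = 0.0454). Without resistant 3 the log2 difference was 0.89 (limma adjusted p = 0.181), and with values as deposited it was 0.96 (limma adjusted p = 0.131).

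HBB encodes the adult beta chain and is read by 4 probe sets. The probe set 209116_x_at stood at 27.3, 27.7 and 26.2 array medians in parental arrays and at 30.05, 26.8 and 46.3 in resistant arrays. Apart from resistant 3, the arrays lay within a narrow range, and the groups overlapped. The probe sets 211696_x_at and 217232_x_at gave log2 differences of 0.12 and -0.15, and 1562981_at, near background, one of 0.00, against 0.30 for 209116_x_at. None was called (limma adjusted p from 0.577 to 1.00), and the 3 brighter ones differed in sign. In each of these 3, resistant 3 was the highest array. HBD and HBB are close paralogs, and any part of HBD transcripts in the HBB signals was not tested.

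In the alpha cluster, HBZ, the zeta chain that precedes alpha in the embryo, did not follow HBE1. Its probe set read 551.3, 652.7 and 617.2 array medians in parental arrays and 713.8, 620.3 and 662.4 in resistant arrays. The groups overlapped, with a log2 difference of 0.13 (SE 0.200, 95% interval -0.35 to 0.61; limma adjusted p = 0.76), and the sign turned with values as deposited (-0.07) and under quantile normalization (-0.09). The interval leaves out a fall of the size seen for HBE1.

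HBA1 and HBA2 encode identical alpha chains and share 6 probe sets. On 211745_x_at the signal was 441.3, 571.5 and 556.6 array medians in parental arrays and 499.8, 379.8 and 539.1 in resistant arrays. The groups overlapped in all 6, and resistant 2 was the lowest array in each of the 6. Their log2 differences ran from -0.27 to 0.00, with 95% intervals between -0.85 and 0.52, and none was called (limma adjusted p from 0.581 to 0.997). All 6 read the same transcripts and are not independent measurements.

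HBQ1 encodes theta, an alpha-type chain of unclear use, and was dimmer. It read 29.9, 31.0 and 26.2 array medians in parental cells and 23.0, 21.3 and 17.7 in resistant arrays. Every resistant array lay under every parental one, by a mean log2 difference of -0.50 (SE 0.214, 95% interval -1.01 to 0.02; limma adjusted p = 0.282). HBM, the mu chain gene, read 0.0769, 0.405 and 0.913 array medians in parental cells and 0.415, 0.336 and 1.16 in resistant arrays, which is background in both, and was not tested.

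**Figure D2:**
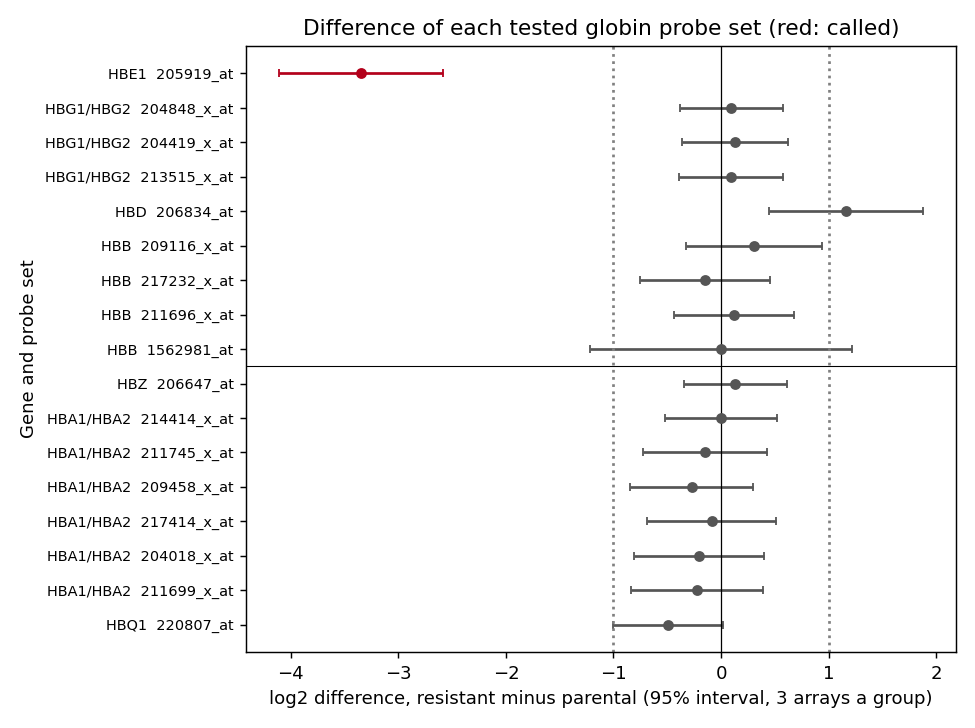
Log2 difference, resistant minus parental, of the 17 tested globin probe sets, with 95% intervals from limma over 3 arrays a group and dotted lines at a fold of 2. HBE1 at -3.35 is the only called probe set (red), and HBD at 1.16 is the only other one whose interval lies off 0.

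Because each ratio of a pair of probe sets is taken within 1 array, it does not depend on how arrays were scaled. The brightest tested probe set of epsilon, gamma, delta, beta, zeta, alpha and theta gave 21 pairs. The size of such a ratio is not a ratio of transcripts, since probe sets differ in response, and only its change between groups is read here. With 3 against 3 arrays an exact permutation test has 20 splits and cannot go below 0.1, which 15 of the 21 pairs reached (two-sided; adjusted over the pairs, exact p = 0.14). These were all 6 pairs with epsilon, all 5 further pairs with delta, and 4 of the other 10, each of them with theta. HBE1, HBD and HBQ1 had each separated the groups before any ratio was taken. The pairs share members and largely restate these probe sets, so their count is no further support. How often ratios of other probe sets reach the smallest p was not counted.

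The log2 ratio of epsilon to gamma was -0.16, -0.41 and -0.48 in parental arrays and -3.45, -3.32 and -4.61 in resistant arrays. Its mean changed by -3.44, from -0.35 ± 0.17 to -3.79 ± 0.71 (SD, n = 3 arrays each). Against the other globins, the epsilon ratio changed by -3.48 for zeta, -3.34 for alpha, -3.65 for beta, -2.85 for theta and -4.51 for delta. Epsilon was thus lower relative to every other globin tested.

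The log2 ratio of delta to beta was 0.88, 1.21 and 1.19 in parental cells and 1.92, 1.90 and 2.03 in resistant arrays, a change of 0.86. Any HBD transcripts read by the HBB probe set would enter this ratio. Delta was higher against gamma as well. The ratio of gamma to delta was 3.90, 3.54 and 3.73 in parental cells and 2.83, 2.88 and 2.28 in resistant arrays, a change of -1.07. The ratio of delta to zeta changed by 1.03, and that of delta to alpha by 1.17. Groups did not overlap in any of these ratios.

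The ratios among the bright globins had small changes, with the limit that gamma signals near the top of the scale may be compressed. The ratio of gamma to zeta changed by -0.04 (exact p = 0.9), gamma to alpha by 0.10 (exact p = 0.5) and zeta to alpha by 0.14 (exact p = 0.4). In the ratio of zeta to alpha, the parental arrays read 0.27, 0.29 and 0.28, and the resistant arrays 0.44, 0.57 and 0.24. Theta was lower relative to gamma, zeta and alpha, with changes of 0.59, 0.63 and 0.49 in the ratios of these to theta.

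**Figure D3:**
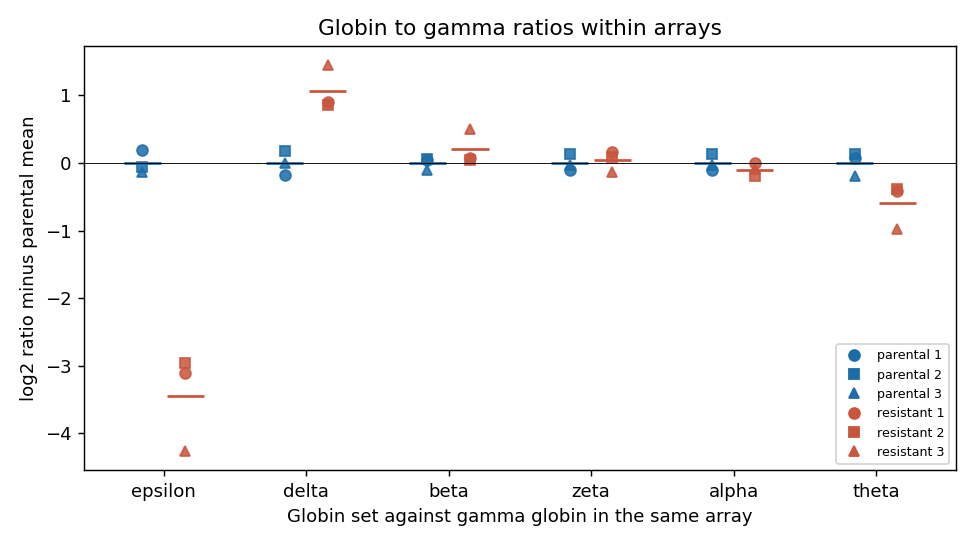
Log2 ratio of 6 globins to gamma globin within each array, less the parental mean of that ratio, with short lines at group means (parental blue, resistant red, 3 arrays each). Epsilon lies 3.44 lower and delta 1.07 higher in resistant arrays, while the resistant means of zeta and alpha differ from the parental ones by at most 0.10, on a gamma signal that may be compressed.

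The genes around each cluster were read next, to see which neighbours in gene order moved with HBE1. Each gene was represented by its brightest tested probe set that names that gene alone, 11810 genes in all, of which 2.77% were called. Of 24 tested neighbours of the beta cluster (12 on each side) and 18 of the alpha cluster (6 before it, where the chromosome ends, and 12 after it), 0 were called by limma. At an unadjusted p under 0.05 there were 10 beside the beta cluster and 2 beside the alpha cluster, where 20% of all genes passed that threshold. The 10 were unevenly placed, with 1 on the side of HBB and 9 on the side of HBE1.

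On the side of HBE1 the nearest tested genes code for olfactory receptors, odorant receptors of the nose. OR51B4, the next tested gene after HBE1, read 10.6, 10.7 and 9.30 array medians in parental arrays and 3.74, 4.66 and 0.745 in resistant arrays. Its log2 difference was -2.12 (SE 0.678; limma adjusted p = 0.171), and as for HBE1 resistant 3 was the lowest array. The next 3, OR51B2, OR51B5 and OR51I1, were also lower in every resistant array, with log2 differences of -1.08, -0.82 and -1.09 (limma adjusted p = 0.133, 0.21 and 0.184). OR51B5 stood at 6.74, 9.504 and 8.11 array medians in parental cells and at 5.65, 5.26 and 3.20 in resistant arrays. The other 2 tested olfactory genes on that side, OR51I2 and OR52D1, did not follow, with log2 differences of 0.27 and 1.04. OR51I1, OR51I2, OR52D1 and, in resistant arrays, OR51B2 lay about the array median, where background weighs on the values.

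Beyond the olfactory genes, TRIM5, TRIM6 and TRIM22, antiviral ubiquitin ligases, lay higher in every resistant array, with log2 differences of 1.03, 1.17 and 1.43, and were not called (limma adjusted p = 0.229, 0.124 and 0.161). Counted over all 12 tested genes on the side of HBE1, 5 lay lower and 4 higher without overlap of the groups, where 14.2% and 16.1% of all genes did (30.2% in either direction). Among those counted lower, OR51I1 passed the level filter only through its parental arrays (resistant mean 0.781). Among those counted higher, OR52D1 passed it only through its resistant arrays (parental mean 0.764). The filter thus favoured the directions of these genes. On the side of HBB, the nearest tested gene was the olfactory pseudogene OR51A1P, at 0.252 to 2.28 array medians over the 6 arrays. Here 2 of 12 lay lower without overlap and 0 higher. The genes named in this and the preceding paragraph, apart from OR51B4 and OR51A1P, were chosen after their values were seen.

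Inside the beta cluster, the pseudogene HBBP1 and the noncoding BGLT3 lie between HBD and HBG1. HBBP1 read 10, 6.53 and 4 array medians in parental cells and 5.37, 6.02 and 6.52 in resistant arrays. BGLT3 read 9.89, 5.21 and 3.83 in parental cells and 6.41, 4.56 and 3.26 in resistant arrays. Both overlapped between groups, with log2 differences of -0.10 and -0.35 (limma adjusted p = 0.903 and 0.702), and were chosen after their values were seen. In the beta cluster, then, called lower signal was found at HBE1, the gene nearest to the locus control region, and not at the probe sets between it and HBB.

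Beside the alpha cluster, NPRL3, which carries the far enhancers of the cluster in its introns, read 13.5, 11.5 and 12.05 array medians in parental cells and 16.6, 12.2 and 17.1 in resistant arrays (log2 difference 0.30; limma adjusted p = 0.525). LUC7L, a splicing factor gene next to HBQ1, had a log2 difference of 0.28 (limma adjusted p = 0.529). Of the 18 neighbours, 9 had a positive and 9 a negative difference, and the median was 0.13 against 0.02 over all genes.

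**Figure D4:**
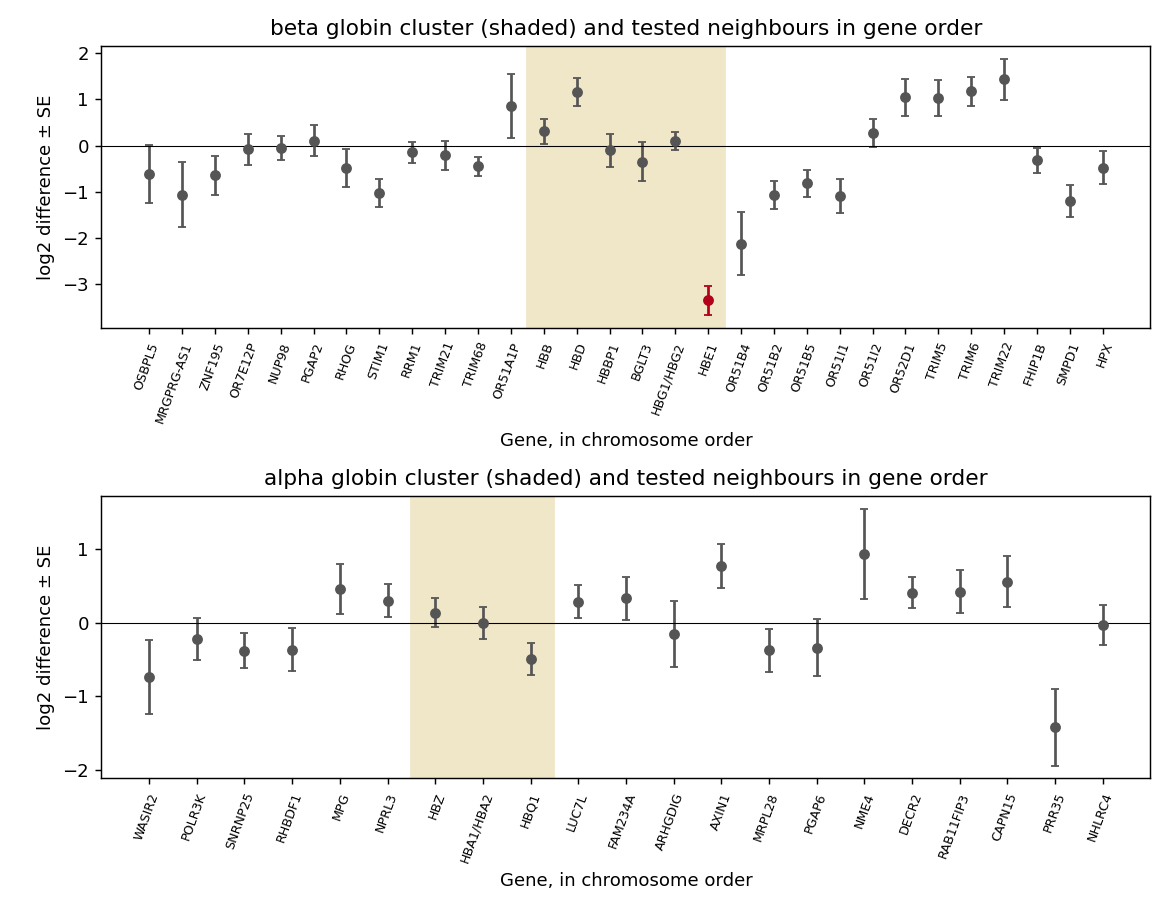
Log2 difference, resistant minus parental, ± SE (3 arrays a group), of tested genes in chromosome order around the beta (upper) and alpha (lower) globin clusters, which are shaded, with called genes in red. HBE1 is the only called gene, and the 4 olfactory receptor genes next to it lie between -2.12 and -0.82.

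The proteins that switch or maintain globin genes were examined as a list of 30 genes, of which 29 were tested. BCL11A, a zinc finger repressor of embryonic and fetal globin genes, was the 1 gene called, higher in resistant cells, and 0 were called lower. Among all tested genes 1.3% were called higher and 1.47% lower. The median log2 difference of the list was 0.11, against 0.02 over all genes, and 5 of the 29 had an unadjusted p under 0.05, where 20% of all genes had.

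BCL11A read 1.11, 0.481 and 1.11 array medians in parental arrays and 5.36, 4.26 and 6.90 in resistant arrays. Every resistant array lay above every parental one, and the parental arrays were in the range of background. The log2 difference was 2.68 (SE 0.397; limma adjusted p = 0.0254). All 4 probe sets of BCL11A separated the groups, with log2 differences of 2.68, 3.18, 3.51 and 3.04, and 2 of them were called. Their parental means were 0.901, 0.473, 0.172 and 0.641 array medians, so each passed the level filter only through the resistant arrays. All 4 read the same gene and are not independent measurements. With the parental arrays at background the sizes of the log2 differences depend on the low values. With 1 array median added before log2 the difference of the representative probe set was 1.77. The call of its representative probe set ended without parental 3, without any of the resistant arrays, with no level filter and with the methods' t-test (adjusted p from 0.0573 to 0.12), and without parental 1 and resistant 3 together (adjusted p = 0.0534).

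The erythroid activators did not show the same split. KLF1, which binds the CACCC box of the beta gene, read 23.2, 66.6 and 66.01 array medians in parental cells and 105.2, 67.4 and 45.8 in resistant arrays. Its groups overlapped (log2 difference 0.56, limma adjusted p = 0.60). Without parental 1, its lowest array, the KLF1 log2 difference was 0.05 (limma adjusted p = 0.952). GATA1, the GATA factor of red cell precursors, read 41.8, 60.7 and 54.9 in parental cells and 42.0, 26.5 and 22.5 in resistant arrays. Its groups overlapped by 1 array on each side, and the log2 difference was -0.82 (SE 0.307; limma adjusted p = 0.221).

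MYB, which holds back fetal globin in adult precursors and was chosen here after its values were seen, came closest to a call among the rest. It read 53.2, 50.7 and 51.9 array medians in parental cells and 117.3, 96.0 and 123.2 in resistant arrays, a log2 difference of 1.10 (SE 0.206; limma adjusted p = 0.0527). It was called under quantile normalization, a level filter of 2 array medians, either pseudocount and the intensity trend (adjusted p from 0.00526 to 0.0461). SOX6, a partner of BCL11A in globin silencing and chosen after its values were seen, had 1 of 4 tested probe sets called higher. This probe set read 0.657, 0.267 and 0.26 array medians in parental arrays, at background, and 2, 2.504 and 4.07 in resistant arrays (limma adjusted p = 0.0298). It passed the level filter only through the resistant arrays, so the filter favoured this call. The brightest probe set, which represents the gene, overlapped between groups (log2 difference 0.07, limma adjusted p = 0.933). Without overlap between groups, 6 of the 29 regulators lay higher and 1 lower, where 16.1% and 14.2% of all tested genes did. The 6 include BCL11A and NFIX, the latter named after its values were seen. Their parental means were 0.901 and 0.677 array medians, so both passed the level filter only through the resistant arrays. The filter thus favoured a higher count.

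For the assembly of haemoglobin and the supply of haem, 16 of 18 listed genes were tested and 0 were called by limma, where 2.77% of all genes were called, with 4 of the 16 at an unadjusted p under 0.05 (20% of all genes) and a median log2 difference of 0.00. AHSP, the chaperone that keeps free alpha chains soluble, read 1.97, 11.7 and 9.84 array medians in parental cells and 0.0488, 1.54 and 0.225 in resistant arrays. All resistant arrays lay under all parental ones, 2 of them under the array median, with a log2 difference of -4.57 (SE 1.30; limma adjusted p = 0.139). AHSP passed the level filter only through the parental arrays. Because the resistant signals lay at background, the size of this difference is not well measured. It was -2.32 with 1 array median added before log2, where AHSP was called (limma adjusted p = 0.0439), and it ran from -3.37 without resistant 1 to -5.86 without resistant 2. BLVRB, a biliverdin reductase of red cells and chosen after its values were seen, stood at 213.8, 231.2 and 206.4 in parental cells and 118.6, 92.4 and 58.8 in resistant arrays (log2 difference -1.33; limma adjusted p = 0.0844). The rate-limiting erythroid enzyme ALAS2 overlapped between groups, at 53.1 to 122.4 array medians in parental cells and 84.98 to 110.6 in resistant arrays. Of the remaining globin family, myoglobin (MB), neuroglobin (NGB) and androglobin (ADGB) were under the level filter, and cytoglobin (CYGB) was tested and not called (log2 difference -0.53; limma adjusted p = 0.366).

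**Figure D5:**
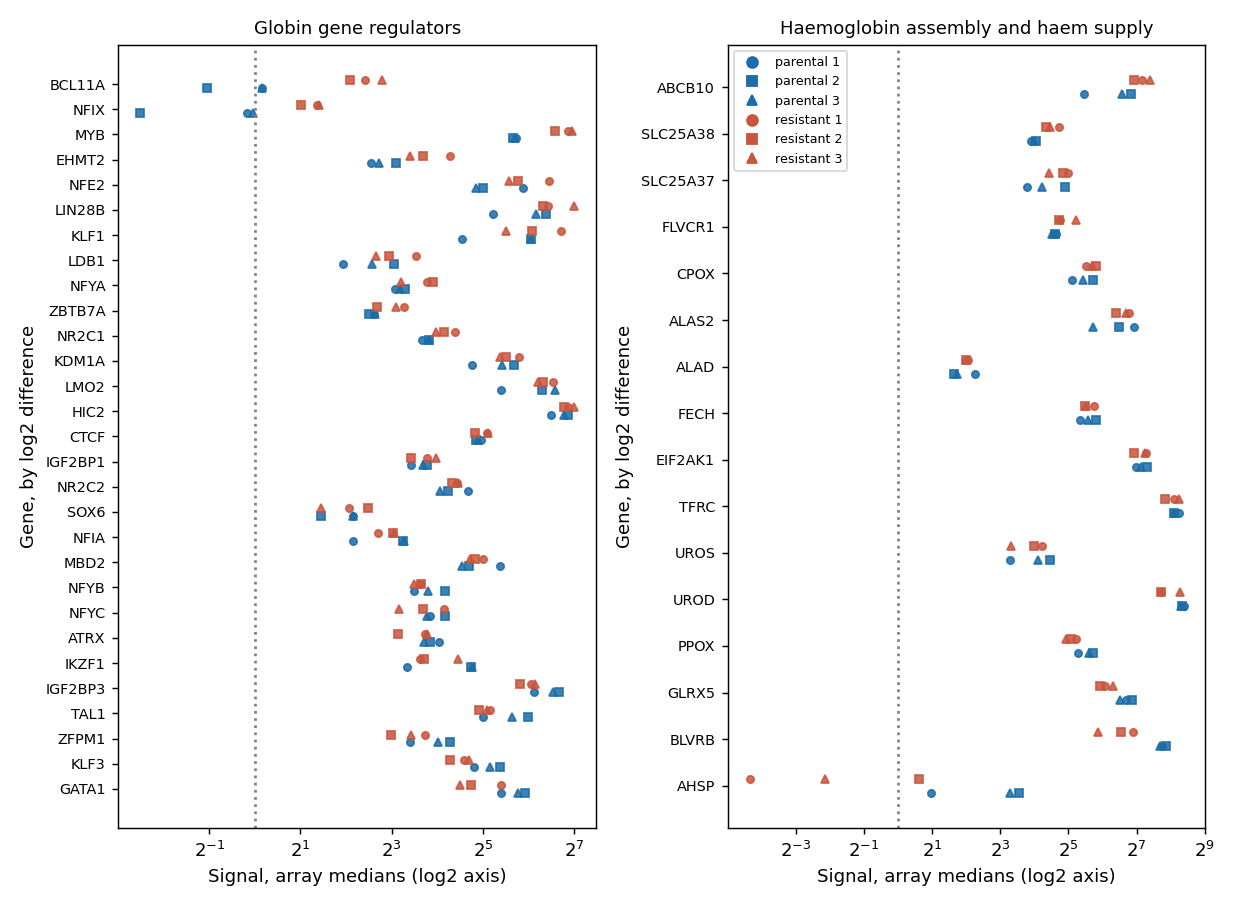
Signal per array, in array medians on a log2 axis, of the 29 tested globin gene regulators (left) and the 16 tested genes of haemoglobin assembly and haem supply (right), sorted by log2 difference. BCL11A at the top left rises from about the array median (dotted line) in parental arrays (blue) to 4.26 to 6.90 in resistant arrays (red), and AHSP at the bottom right lies lowest in resistant arrays.

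Genes whose levels ran most like those of HBE1 over the 6 arrays were found by Pearson correlation of log2 levels with 11805 genes that are no globin. The 5 highest were CALD1 (caldesmon, an actin-binding protein), DOCK11, PIR (pirin), MLKL (the executor of necroptosis) and SAMD4A (an RNA-binding repressor), with r from 0.995 to 0.997 over 6 arrays. All 5 fell in resistant cells, and each was called (limma adjusted p from 0.0016 to 0.0201), which their choice by likeness to HBE1 largely fixed. Their resistant signals were at most 1.66 array medians, about background, so no size is given. In total 207 genes exceeded 0.95. A gene with a large fall between the groups and little spread within them correlates highly with HBE1 for that reason alone. For the brightest gamma probe set the 5 highest were HDHD2, MNT, TRUB1, SPEM1 and SNX25, with r from 0.986 to 0.993. None of these was called, and each was highest in resistant 3, as gamma was. These arrays share their scaling, and the correlations are descriptions.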

How the data were processed

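Expression was measured on Affymetrix HG U133 Plus 2.0 arrays, 3 of parental and 3 of resistant K562 cells. The authors deposited linear intensities, with 1 signal for each probe set, made with MAS5 (version not given in the sources used here). The divisions by the 50th percentile and by the control median that the methods describe are not in them, since array medians ran from 10.2 to 14.3. Here each intensity was divided by its array median, set to at least 0.01, and log2 was taken. The 62 control probe sets and those averaging under 1 array median were left out, and 26692 remained. Groups were compared with limma 3.58.1 under R 4.3.3 (lmFit, eBayes), two-sided, with p-values adjusted over all of them by Benjamini-Hochberg. The fit was tested on simulated data. Errors of levels are SD over 3 arrays, and the number of arrays limits the precision.

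Genes were named from the platform annotation, and symbols updated by gene ID to GRCh38.p14 for 41043 of 41097 probe sets with 1 gene. No build is named for the values, so the order of genes came from that annotation.

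The members and gene lists were chosen with earlier results of these data known. Named were every globin probe set, called list members, BCL11A, KLF1, GATA1 and AHSP, the genes next to each cluster, and the 5 genes most like HBE1 and gamma. Genes outside this rule are marked, apart from ALAS2, the other globins and the cell type markers. The alternatives were other scalings, level filters, pseudocounts, a trend, the t-test of the methods, a replicate block, other probe sets, and leaving out arrays.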

Additional observations from a re-analysis of the deposited data

How the results depend on the processing

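The fall of HBE1 kept its direction under all 17 alternatives, with log2 differences from -3.55 to -2.94, and lost its call in 1, the methods' t-test (-3.35, adjusted p = 0.0621). Leaving out parental 1 and resistant 3 together was added after seeing the data, and HBE1 stayed called. The count of called globin probe sets, 1 in the main analysis, was 2 with a pseudocount of 1 array median and 2 with the intensity trend, HBD being added (1.15 and 1.16), and 0 with the t-test, and so were the counts of the beta cluster. It was 1 with each array left out. In the alpha cluster the count was 0 throughout. The change in the epsilon to gamma ratio ran from -3.68 to -3.03.

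Of the regulators, 1 called in the main analysis, 2 were called under quantile normalization, a filter of 2 array medians, a pseudocount of 0.25, the intensity trend or the probe set with the lowest p, 3 with a pseudocount of 1, 0 with no level filter, with the t-test or without parental 1 and resistant 3, and 0 to 1 with an array left out. Of the haemoglobin assembly genes, 0 in the main analysis, 1 was called with scaling by the 75th percentile, a filter of 2 array medians or the trend, and 2 with a pseudocount of 1. Among neighbours of the beta cluster 0 to 1 were called with an array left out, STIM1 without parental 1. Over the array the called probe sets, 622 in the main analysis, were 51.3% higher, and 39.3% with values as deposited, where the median of all differences was -0.18.

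Samples with the same replicate number did not deviate together (r = -0.00671, -0.0253 and -0.00641), nor did every sample correlate best with its own number. With the replicate block the called globin probe sets numbered 1, HBE1 at -3.35, and over the array 136 were called lower, 49.4% of the calls being higher. The number of arrays and, for gamma, the top of the signal range limit what could be detected.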
